A study of Mus musculus with 24 samples.

Results

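The hindlimb bud of the E11.5 mouse embryo after loss of U11 was described from 6 of the 24 libraries of the series, 3 labelled mutant and 3 labelled WT. They were found by their titles, which give the stage, the genotype and the limb. Each holds the total RNA of dissected hindlimb buds of strain C57/Bl6. All 6 carry floxed alleles of the U11 gene (U11flx/flx). The WT libraries lack the Prrx1-Cre transgene and the mutant ones carry it, so the controls are floxed embryos without recombinase rather than animals with unaltered alleles. The Prrx1 enhancer drives Cre in limb bud mesenchyme, so ectoderm, endothelium and blood in the same bud are expected to keep the gene. The labels do not name embryos or litters, and p-values therefore measure only the spread between the libraries of each fit, which may be partly technical.

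U11 is a small nuclear RNA of the minor spliceosome, the machinery that removes a rare class of introns with unusual, highly conserved ends. It works joined to the U12 RNA: U11 pairs with the start of the intron and U12 with the branch point near its end. Genes with a minor intron also hold ordinary introns, so 1 slowly spliced intron can hold back a whole transcript. Such genes are frequent among those for DNA replication, mitosis, RNA processing and intracellular transport. In the limb bud, mesenchyme proliferates under FGF signals from the apical ridge and SHH from the posterior margin before cartilage condenses.

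The sequences below show what U11 is and which introns it reads. They come from GENCODE M21 transcripts (GRCm38, the build called mm10 in the submitters' processing notes). Rnu11, the U11 gene, is read from the minus strand of chromosome 4, positions 132270080 to 132270213, and its whole RNA of 134 bases follows. The capitals mark AAGG, at bases 4 to 7, which is complementary to the CCTT in the first bases of minor introns.
Rnu11: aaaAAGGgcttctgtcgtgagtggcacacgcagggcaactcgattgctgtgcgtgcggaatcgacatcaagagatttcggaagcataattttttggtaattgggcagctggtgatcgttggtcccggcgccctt

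Minor introns were read where an annotated transcript keeps the intron, which was possible for 11890 of 218194 introns of protein-coding genes. Of these, 48 started with ATATCCTT or GTATCCTT, and 19, in 18 genes, also held CCTTAAC or CCTTGAC within their last 50 bases. The first 20 and last 40 bases are shown for 3 genes described further on, with the intron-start and branch-point letters in capitals. Spc24 encodes a kinetochore subunit, Ift80 a protein of intraflagellar transport in cilia and Rfx5 a transcription factor of MHC class II genes. The Spc24 intron lies on chromosome 9 at 21757395 to 21757684 and that of Ift80 on chromosome 3 at 68990964 to 68994500. The Rfx5 intron lies on chromosome 3 at 94956607 to 94956720.
Spc24, intron start: ATATCCTTtgctatgtccgg
Spc24, intron end: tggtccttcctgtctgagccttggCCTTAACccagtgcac
Ift80, intron start: ATATCCTTtaaccctgtata
Ift80, intron end: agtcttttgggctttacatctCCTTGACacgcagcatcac
Rfx5, intron start: GTATCCTTgacccagagatt
Rfx5, intron end: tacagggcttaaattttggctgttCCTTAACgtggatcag
The introns of Spc24 and Ift80 begin with AT and end with AC, whereas that of Rfx5 begins with GT and ends with AG. These files give 1 value per gene, so removal of the introns themselves was not analysed here.

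Levels are given in TPM, a share of the library's transcripts corrected for length. The libraries were first brought to 1 median, taken over genes that reached 5 TPM in every E11.5 library. Differences are of log2(TPM + 1), mutant minus WT, ± the standard error of a limma fit to the 12 E11.5 libraries of both limbs, with Benjamini-Hochberg adjusted two-sided p-values and a threshold of 0.05. The added 1 makes the difference of a low gene smaller than the ratio of its levels. TPM keeps no read depth, so the counting error of low values is unknown. Nuclear protein-coding genes held 13.6% to 17.5% of the TPM of a library, and the rescaling factors ran from 0.917 to 1.30. Mutant replicate 3 stood apart. It held Xist at 21.6 TPM and Ddx3y at 0.0109 TPM, whereas the other 5 libraries had Ddx3y at 10.6 to 14.1 TPM and Xist at up to 0.172 TPM. Its correlation with the other libraries over the 10978 genes tested was 0.942 to 0.962, against 0.972 to 0.982 among the other 5. Sex cannot be told apart from other features of that library. Values without it are given beside several results that it moved.

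The first question was whether Rnu11 was reduced. Rnu11 was at 1798, 1401 and 787 TPM in the WT libraries and at 354, 365 and 293 TPM in the mutant ones. The groups did not overlap, and the WT libraries spread far more widely than the mutants. The mutant mean was 25.4% of the WT mean, with 1329 ± 509 TPM in WT and 337 ± 38.8 TPM in mutants (SD, n = 3 each). An exact two-sided permutation test gave p = 0.1, the smallest that 3 against 3 libraries allow. The difference was -1.90 ± 0.27 and missed the limma threshold (adjusted p = 0.075), but passed it on the deposited scale (0.00094), after rescaling over genes with at least 20 TPM (0.0408) and without WT replicate 3 (0.00538). It missed it in the fit of the 6 hindlimb libraries (0.288), in that of all 24 (1), with the replicate number as a block (0.111) and without any other single library (0.166 to 0.399). In a whole bud, fewer cells with a transcript and less of it per cell cannot be told apart, and how much of the remaining Rnu11 came from cells without Cre was not tested.

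The annotated long RNA Gm28872 (132270056 to 132270213) runs over the whole of Rnu11 in the opposite direction. It was at 397, 402 and 311 TPM in WT and 119, 159 and 146 TPM in mutants, again with no overlap. It differed by -1.38 ± 0.22 (adjusted p = 0.129). Whether strand was used in counting is not given in the sources used here, and reads of either gene may have been counted for the other. Rnu12, the gene of the partner RNA, was at 21.1, 29.8 and 30.7 TPM in WT and 17.6, 39.9 and 7.85 TPM in mutants. Its groups overlapped, and the lowest value was that of mutant replicate 3. The difference was -0.56, and -0.02 without that library. Of 15 genes for proteins of the minor spliceosome, 14 were tested, 8 higher and 6 lower, none past the threshold, with a median difference of 0.02. Among them Ccdc84, known to bind the minor spliceosome, was at 1.42, 1.48 and 1.35 TPM in WT and 1.96, 2.35 and 1.39 TPM in mutants (0.25 ± 0.12, and 0.38 without mutant replicate 3). Pdcd7, a U11-associated protein, was at 1.86, 1.81 and 1.78 TPM in WT and 1.46, 1.62 and 1.58 TPM in mutants (-0.14 ± 0.07), with no overlap.

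Across all genes the hindlimb differed little between genotypes. Of 10978 genes tested, 2 passed the threshold (0.0182%), both lower in mutants. The median difference over all genes was -0.03, or -0.10 on the deposited scale, and 4490 genes were higher and 6484 lower. Without adjustment, 150 genes were higher (1.37%) and 509 lower (4.64%) at p under 0.05. The fit of all 24 libraries gave no call, with 70 genes higher and 237 lower at an unadjusted p under 0.05.

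Rpl28, which encodes a protein of the large ribosomal subunit, gave the clearest difference. It was at 85.9, 90.9 and 79.5 TPM in WT and at 9.90, 10.52 and 9.32 TPM in mutants. The groups lay far apart, at 85.4 ± 5.68 and 9.91 ± 0.600 TPM, an 8.62-fold lower mean in mutants. Rpl28 fell by 2.98 on the log2 scale (SE 0.08, adjusted p = 5.3e-09), and passed in 14 of 15 alternatives. In the fit of all 24 libraries the difference was -3.01 ± 0.58 with an adjusted p of 0.212. Rpl28 lies on chromosome 7 at 4792874 to 4795066 on the plus strand. Of the 31-base words of its longest transcript, 35.7% also occur in other annotated genes, led by the pseudogene Rpl28-ps1, so part of its reads could be assigned elsewhere.

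Other ribosomal protein genes lay slightly higher in mutants. Of 81 tested, Rpl28 included, 79 were higher and 2 lower (40.9% of all genes were higher), with a median of 0.18. Rpl28 alone passed. Rps16, of the small subunit, was at 180, 185 and 208 TPM in WT and 215, 248 and 224 TPM in mutants (0.26 ± 0.10). Rpl3, of the large subunit, was at 356, 245 and 268 TPM in WT and 326, 386 and 360 TPM in mutants (0.32 ± 0.14). For the whole list the median was 0.09 with the TPM as deposited, 0.27 when WT replicate 1 was left out and 0.08 when WT replicate 2 was. As differences from the WT mean, the list's median was 0.16 in WT replicate 1, above mutant replicate 1 at 0.10. In the forelimb the list lay the other way, with 25 higher, 56 lower and a median of -0.07.

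Gm24405, the other called gene, is an annotated copy of U1, the small nuclear RNA that recognises the start of ordinary introns. Its first 30 bases are the same as those of the U1 gene Rnu1a1, and the capitals mark the letters that pair with an ordinary intron start.
Gm24405, first bases: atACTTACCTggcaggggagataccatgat
Rnu1a1, first bases: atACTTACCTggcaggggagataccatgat
Gm24405 was at 4.22, 1.66 and 4.79 TPM in WT and was listed at 0 in all 3 mutant libraries. It was also listed at 0 in the E11.5 forelimb, mutant and WT alike. It reached the filter through the 3 WT hindlimb libraries alone, and the 9 other libraries, all at 0, add no spread to its error, so its adjusted p of 0.00537 is no independent support. The copy lies on chromosome 1 at 178636905 to 178637071, and 21.2% of its 31-base words occur in 32 other genes. The call was lost with a pseudocount of 0.1 (adjusted p = 0.1005), in the fit of the 6 hindlimb libraries (0.127) and in that of all 24 (0.525). In the E10.5 hindlimb the fit of all 24 put the gene higher in mutants, by 1.40 ± 0.50, which did not pass. The gene was below the filter, and so had no test, where 5 TPM was required or any WT library was left out.

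Next to these calls stand genes whose groups were separated but whose differences did not pass the threshold. Capns1, the regulatory subunit of calpain proteases, was at 22.1, 24.9 and 24.5 TPM in WT and 8.69, 7.61 and 16.7 TPM in mutants. Mutant replicate 3 lay between the others and WT, and the difference was -1.13 ± 0.25 (adjusted p = 0.754). Without that library it was -1.44, and Capns1 passed (adjusted p = 0.0459). Tbcb, a chaperone that folds tubulin, showed the same order, at 29.8, 28.5 and 33.0 TPM in WT and 14.5, 12.03 and 19.9 TPM in mutants (-0.96 ± 0.21, adjusted p = 0.754). Neither gene shares a 31-base word with another annotated gene.

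Axl, a receptor tyrosine kinase, was at 5.90, 7.07 and 5.93 TPM in WT and 3.85, 3.98 and 3.73 TPM in mutants (-0.59 ± 0.14). Sox6, a transcription factor that acts with SOX9 in cartilage formation, was at 5.73, 4.78 and 6.57 TPM in WT and 3.74, 3.75 and 3.94 TPM in mutants (-0.47 ± 0.12). In both genes the mutants lay close together and below every WT library, and the values without mutant replicate 3 were -0.57 and -0.49. Capns1 (30186936 to 30198811), Tbcb (30224131 to 30232272), Axl (25757273 to 25788705) and Sox6 (115470872 to 116038796) all lie on chromosome 7, as does Rpl28. Of the 10 largest falls named by the rule, 5 were thus on this chromosome, which held 752 of the tested genes, an observation made after the values were seen. Of the chromosome 7 genes 7.05% were lower at an unadjusted p under 0.05, against 6.27% on chromosome 3 and 2.14% on chromosome 19, the next highest and the lowest.

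Other named genes at an unadjusted p under 0.05 lay on several chromosomes. Adgrl3, an adhesion receptor of neurons, was at 4.83, 5.97 and 7.73 TPM in WT and 4.48, 4.60 and 2.28 TPM in mutants (-0.61 ± 0.21). Mab21l1 was at 8.70, 7.71 and 9.58 TPM in WT and 6.79, 6.98 and 3.53 TPM in mutants (-0.56 ± 0.20), and Psd3 at 5.55, 5.77 and 7.32 against 4.55, 5.20 and 2.97 TPM (-0.48 ± 0.19). All 3 were lowest in mutant replicate 3, and without it the differences were -0.35, -0.29 and -0.29. Among the higher genes, Smim4, a small mitochondrial protein, was at 13.8, 10.4 and 13.6 TPM in WT and 16.0, 17.1 and 18.6 TPM in mutants (0.43 ± 0.13). Tomm5, a subunit of the mitochondrial import pore, was at 36.3, 27.0 and 30.9 TPM in WT and 37.4, 41.9 and 46.0 TPM in mutants (0.40 ± 0.15), with WT replicate 1 close below the mutants. B9d1, of the ciliary transition zone, was at 8.61, 6.03 and 7.41 TPM in WT and 9.58, 9.65 and 10.7 TPM in mutants (0.40 ± 0.12). Mnd1, Uchl3 and Sdf2 differed by 0.39, 0.35 and 0.34, and Eno3 and Eno1b, enolases of glycolysis, by 0.47 each. Without mutant replicate 3 the values of Mnd1 and Uchl3 were 0.25 and 0.23, and those of Eno3 and Eno1b 0.22 and 0.30, none at an unadjusted p under 0.05. Of the words of Eno1b 88.5% occur in other genes, so its reads may be shared with them.

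Rpl27-ps3, a processed pseudogene of the ribosomal protein gene Rpl27, had the largest named difference in the upward direction. It was at 9.58, 4.74 and 9.04 TPM in WT and 104, 94.0 and 112 TPM in mutants, with a wide gap between the groups. The difference was 3.62 ± 0.82 (adjusted p = 0.754), and it passed in the fit of the 6 hindlimb libraries alone (3.61 ± 0.22, adjusted p = 0.00089), in which the spread of the forelimb libraries has no part. In the forelimb its levels were 35.5, 8.63 and 12.9 TPM in WT and 5.80, 107 and 66.3 TPM in mutants, which overlapped. All of its 31-base words occur in other annotated genes, so the values cannot be assigned to this copy. Rpl27 itself was at 28.4, 19.9 and 24.3 TPM in WT and 22.5, 27.9 and 34.3 TPM in mutants, with a difference of 0.21, or 0.06 without mutant replicate 3. Rps2-ps6, another pseudogene, was at 6.28, 3.81 and 4.23 TPM in WT and 34.3, 111 and 6.67 TPM in mutants, and 93.9% of its words are shared.

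**Figure D1:**
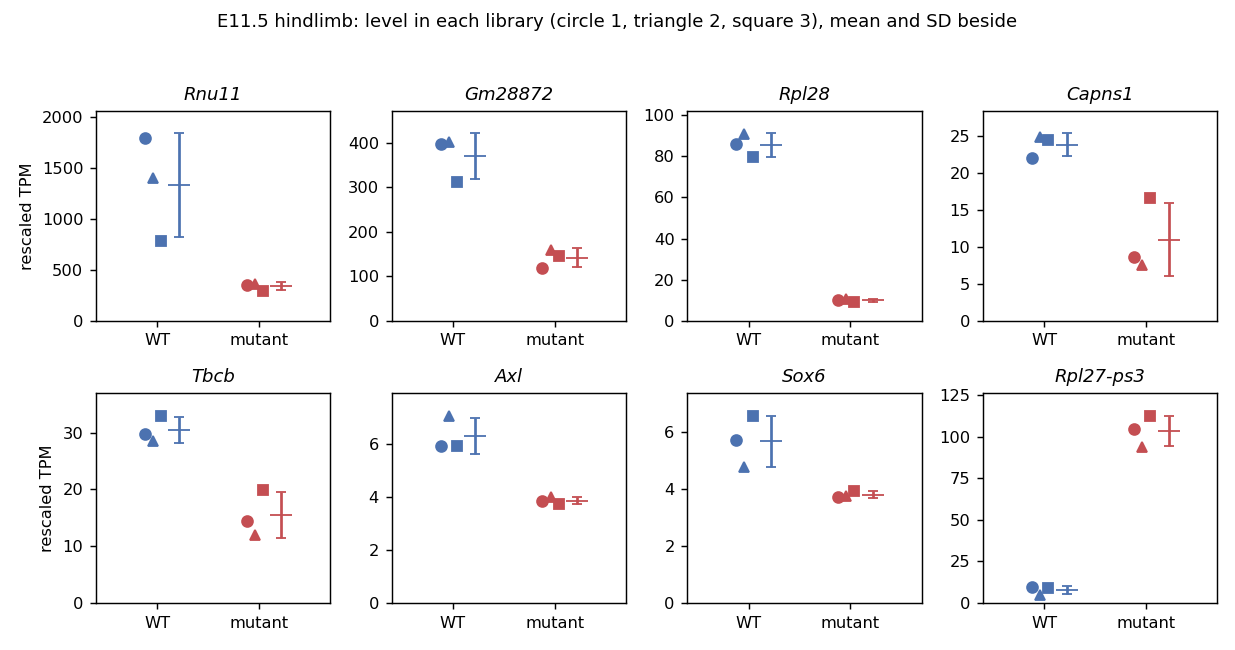
Rescaled TPM (linear axes from 0) of 8 genes in the 3 WT and 3 mutant E11.5 hindlimb libraries, with the mean and SD of each group beside the points. Rnu11, Gm28872, Rpl28, Capns1, Tbcb, Axl and Sox6 were lower in every mutant library than in every WT library and Rpl27-ps3 higher; of these only Rpl28 passed the threshold.

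Genes known to hold minor introns had a median difference close to that of all genes. A list of 45 was written from general knowledge, with earlier results of these data known. Of these genes 44 were tested, 20 higher and 24 lower, with a median of -0.02 beside -0.03 over all genes. None passed. At an unadjusted p under 0.05, 3 of the 44 were lower, beside 4.64% of all genes, and none was higher. The 3 included Ift80 and Kifap3. Ift80 was at 9.95, 9.21 and 11.2 TPM in WT and 7.71, 8.75 and 7.57 TPM in mutants (-0.30 ± 0.12, adjusted p = 0.754). Kifap3, the cargo-binding subunit of a kinesin motor, was at 5.52, 6.41 and 6.90 TPM in WT and 5.23, 5.02 and 5.45 TPM in mutants (-0.22 ± 0.08). In both the mutants lay below all WT libraries, by a small margin. Without mutant replicate 3 the differences were -0.27 for Ift80 and -0.24 for Kifap3. Of the 44 genes 14 were then higher and 30 lower, with a median of -0.055 beside -0.03 over all genes. As differences from the WT mean, the list's medians were -0.06 in mutants 1 and 2 and 0.02 in mutant 3. Those of the WT libraries lay between -0.01 and 0.01.

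Spc24 was at 12.9, 11.8 and 12.1 TPM in WT and 9.08, 10.9 and 11.4 TPM in mutants. These groups also did not overlap, but the difference was only -0.22 ± 0.11 (95% interval -0.45 to 0.02). Without mutant replicate 3 the difference of Spc24 was -0.28 (limma unadjusted p = 0.039, adjusted p = 0.998). Its partners of the NDC80 complex, which ties chromosomes to spindle microtubules, lay the other way, as Nuf2 at 21.8, 18.3 and 21.2 TPM in WT and 20.4, 22.2 and 26.5 TPM in mutants and Spc25 at 29.5, 26.0 and 31.1 against 30.7, 30.8 and 29.4 TPM. Other list members were level. Polr2e, an RNA polymerase subunit, differed by -0.01 ± 0.09, E2f6, a transcription factor of the cell cycle, by 0.01 ± 0.09, and Thoc2, of the mRNA export complex, by -0.14 ± 0.13. The highest values in the list were 0.23 for Dctn3, a subunit of the dynein activator, and 0.22 for the splicing protein gene Snrpe.

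Among the 18 genes whose minor intron could be read, 17 were tested, 6 higher and 11 lower, with a median of -0.03 and no call. Rfx5, the lowest of them, was at 2.70, 2.38 and 2.70 TPM in WT and 2.02, 1.58 and 1.31 TPM in mutants (-0.45 ± 0.12, adjusted p = 0.754). Pqlc2, a lysosomal amino acid transporter, was at 1.42, 1.39 and 1.33 TPM in WT and 0.937, 1.23 and 1.13 TPM in mutants (-0.18 ± 0.09), and Mau2, which loads cohesin, at 6.81, 7.40 and 6.56 against 6.42, 6.55 and 5.32 TPM (-0.16 ± 0.08). In Rfx5, Pqlc2 and Mau2, as in Ift80, Kifap3 and Spc24 above, every mutant value was below every WT value. The share of all genes separated in this way is not given here, so the separation is not read as a result about minor introns. Xpo7, a nuclear exporter, and Ssr3, of the translocon, differed by -0.03 each. Without mutant replicate 3, 4 of the 17 genes were higher and 13 lower, with a median of -0.08.

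None of the p53 target genes passed in the hindlimb. Of 35, 29 were tested, 12 higher and 17 lower, with a median of -0.05, and none reached an unadjusted p under 0.05. Cdkn1a, the cell cycle inhibitor p21, was at 0.609, 0.683 and 0.503 TPM in WT and 0.807, 0.668 and 0.492 TPM in mutants. Ccng1 (cyclin G1) was at 7.98, 5.62 and 6.92 TPM in WT and 7.96, 8.27 and 8.74 TPM in mutants (0.26 ± 0.20, 95% interval -0.17 to 0.69). Eda2r, a receptor of the tumour necrosis factor family, was at 0.596, 0.408 and 0.589 TPM in WT and 0.632, 0.429 and 0.569 TPM in mutants. The groups of all 3 genes overlapped. Bax, which opens the mitochondrial membrane in apoptosis, was at 20.6, 22.6 and 18.9 TPM in WT and 21.5, 20.5 and 20.2 TPM in mutants. Trp53, the p53 gene itself, differed by -0.11 ± 0.13. Rps27l had the highest value of the list, 0.46. It was at 0.33 without mutant replicate 3 and at 0.66 without WT replicate 1 (limma unadjusted p = 0.018).

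Apoptosis effectors had a median of -0.03 over 21 genes, with Bid at 1.89, 2.02 and 1.94 TPM in WT and 1.45, 1.44 and 1.704 TPM in mutants (-0.22 ± 0.08). The integrated stress response list had a median of -0.01 over 12 genes. Its member Slc7a11, a cystine transporter, was at 3.32, 2.51 and 3.26 TPM in WT and 2.21, 2.60 and 1.58 TPM in mutants (-0.37 ± 0.17, and -0.24 without mutant replicate 3). G1/S genes had a median of 0.03 over 26 and G2/M and mitosis genes of 0.02 over 27, with no call in either. Cdk1, the mitotic kinase, was at 105.3, 89.6 and 94.8 TPM in WT and 104, 115.4 and 118 TPM in mutants (0.22 ± 0.09), with overlap. Pcna, the replication clamp, was at 173, 137 and 162 TPM in WT and 171, 188 and 192 TPM in mutants (0.23 ± 0.12), and Top2a, the mitotic topoisomerase, differed by 0.00 ± 0.12. Histone genes had a median of 0.00 over 66 tested.

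The same fit showed other results in the E11.5 forelimb, whose libraries are separate from those of the hindlimb. Rnu11 was at 1110, 1065 and 1149 TPM in WT forelimb and 201, 132 and 116 TPM in mutant forelimb, lower than in mutant hindlimb. There 52 genes were higher (0.474%) and 140 lower (1.28%). The 52 had a median of 0.57 in the forelimb and of 0.04 in the hindlimb, where 32 (61.5%, beside 40.9% of all genes) were higher, 3 of them (5.77%, beside 1.37%) at an unadjusted p under 0.05, and none passed. The 140 had medians of -0.59 and -0.11, and in the hindlimb 114 (81.4%, beside 59.1% of all genes) were lower, 23 of them (16.4%, beside 4.64%) at an unadjusted p under 0.05, while 1, Rpl28, passed. Rpl28 was also the only 1 of the 192 with a larger absolute difference in the hindlimb than in the forelimb. Genes called in a limb tend to have large estimates there, so the forelimb medians are a description. Across the 10978 genes the differences in the 2 limbs had a Pearson correlation of 0.195, or 0.179 without Rnu11, Gm28872 and Rpl28, given without a test because genes are not independent replicates.

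Named forelimb calls show how the limbs compared. Eda2r rose in the forelimb from 0.423, 0.4997 and 0.405 TPM in WT to 6.55, 5.42 and 3.23 TPM in mutants (2.03 ± 0.17, adjusted p = 0.00049). The difference between the limbs was itself tested and passed for this gene alone (0.00911% of genes), at -2.02 ± 0.24 (adjusted p = 0.0371). That call was lost when any 1 hindlimb library was left out (adjusted p from 0.0532 to 0.176). It was also lost without the filter (limma adjusted p = 0.152). Eda2r reached the filter through the mutant forelimb libraries alone and was below 1 TPM in every other E11.5 library. Its call is therefore no independent support. Ccng1 was at 7.20, 9.19 and 7.64 TPM in WT and 34.9, 30.1 and 18.2 TPM in mutants of the forelimb, and its limb difference of -1.37 ± 0.28 did not pass (95% interval -1.98 to -0.76, adjusted p = 0.199). Cdkn1a was at 0.486, 0.428 and 0.628 TPM in WT forelimb and 2.78, 3.09 and 1.28 TPM in mutant forelimb, with a limb difference of -1.07 ± 0.26 (adjusted p = 0.283). Of the p53 list, 10 members passed in the forelimb, all higher, beside 0.474% of all genes, and the list's median was 0.37. These members were all among forelimb calls of earlier results, known when the lists were chosen. The count is therefore no independent support.

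Spc24 was at 12.3, 13.5 and 12.2 TPM in WT forelimb and 5.29, 5.68 and 7.11 TPM in mutant forelimb. Its difference was -0.97 ± 0.11 there against -0.22 in the hindlimb, and the difference between the limbs, 0.75 ± 0.15, did not pass (adjusted p = 0.199). Kifap3 (-0.81 in the forelimb, -0.22 in the hindlimb), Ift80 (-0.65 and -0.30) and Sox6 (-0.91 and -0.47) were lower in both limbs, and none passed the test of the limb difference. Lage3, of a tRNA-modifying complex, fell by 1.14 on the log2 scale in the forelimb and differed by -0.12 ± 0.12 in the hindlimb, and Sptssa, of sphingolipid synthesis, by -0.97 and -0.09. Of the minor-intron list, 7 of 44 passed in the forelimb, all lower, beside 1.28% of all genes, with a list median of -0.11. Among the 7, Spc24, Kifap3, Ift80, Thoc2 and Polr2e were forelimb calls of earlier results, known when the list was chosen. The count is therefore no independent support. Capns1 and Tbcb were close in both limbs, at -1.02 and -0.74 in the forelimb, without passing there. Capns1 was at 22.1, 25.7 and 27.5 TPM in WT forelimb and 9.02, 10.9 and 16.5 TPM in mutant forelimb, where again replicate 3 was the highest mutant.

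**Figure D2:**
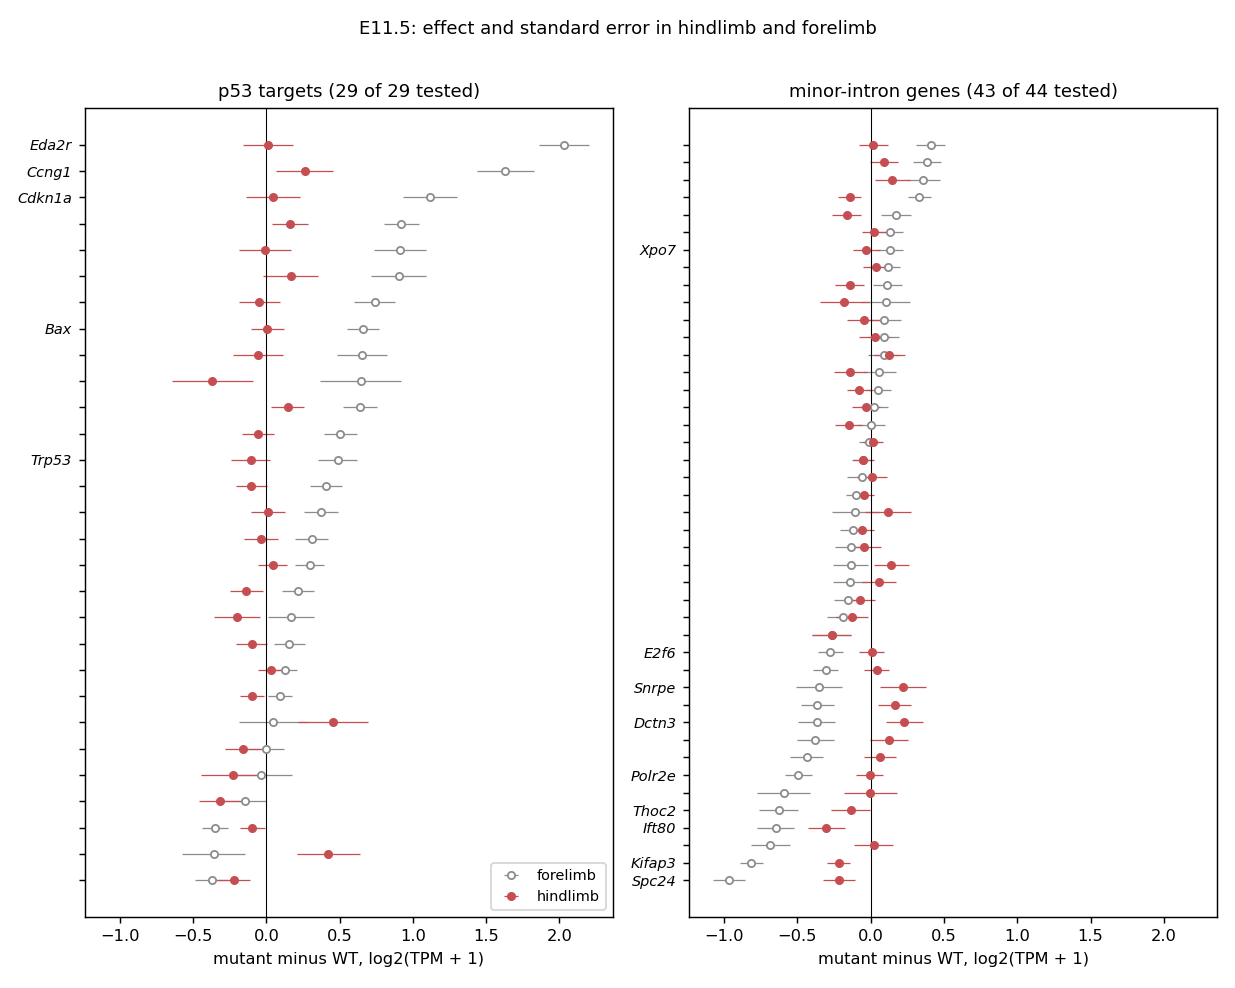
Mutant minus WT difference of log2(TPM + 1) ± standard error of the 29 tested p53 targets and of 43 of the 44 tested minor-intron genes, in the hindlimb (filled) and forelimb (open), ordered by the forelimb, with the genes described in the text named. Hindlimb values stayed within 0.5 of 0, while those of the forelimb reached 2.03 for Eda2r and -0.97 for Spc24.

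**Figure D3:**
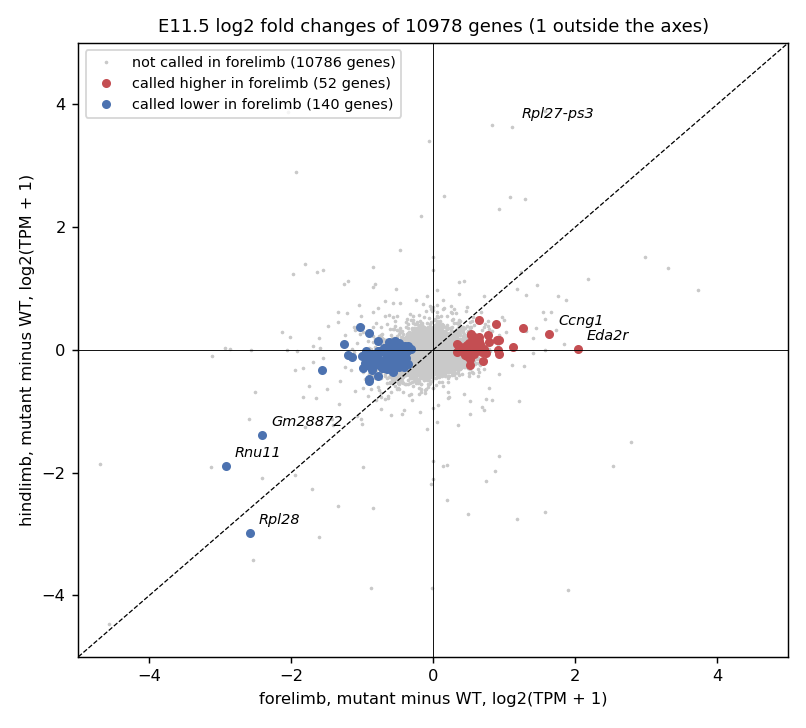
Hindlimb (vertical) against forelimb (horizontal) difference of log2(TPM + 1), mutant minus WT, for 10978 genes at E11.5, with genes called in the forelimb in colour and the line of equal differences dashed (1 gene lies outside the axes). On the hindlimb axis the 52 higher forelimb calls have a median of 0.04 and the 140 lower ones of -0.11, and among these 192 calls Rpl28, Rnu11 and Gm28872 lie farthest from 0.

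Markers of hindlimb identity were present in all 6 libraries. Pitx1, which specifies the hindlimb, was at 15.9, 22.3 and 17.5 TPM in WT and 19.2, 15.1 and 12.2 TPM in mutants, and Tbx4, which drives hindlimb outgrowth, at 5.43, 8.21 and 6.39 against 6.32, 5.14 and 4.21 TPM. Tbx5, its forelimb counterpart, was at most 0.322 TPM. Differences were -0.25 ± 0.15, -0.30 ± 0.15 and 0.19 ± 0.11, and all groups overlapped. Those of Pitx1, Tbx4 and Tbx5 were -0.10, -0.18 and 0.09 without mutant replicate 3. Hoxc11, of the posterior Hox genes, was at 1.93, 2.28 and 1.704 TPM in WT and 1.53, 1.73 and 1.28 TPM in mutants (-0.24 ± 0.10), while Hoxc10 was level (-0.02 ± 0.08).

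No gene of the limb patterning lists passed the threshold. In the SHH and posterior list 14 of 17 genes were tested, 2 higher and 12 lower, with a median of -0.37 that was -0.17 without mutant replicate 3. Hoxd13, which patterns the digits, was at 7.04, 10.8 and 8.72 TPM in WT and 6.61, 6.84 and 1.82 TPM in mutants (-0.82 ± 0.37, adjusted p = 0.754), and -0.33 without that library. Ptch1 and Gli1, direct SHH targets, were at 7.88, 10.3 and 7.99 against 7.34, 7.79 and 4.18 TPM (-0.42 ± 0.20) and at 3.13, 3.93 and 2.94 against 2.88, 2.83 and 1.31 TPM (-0.41 ± 0.20). Without mutant replicate 3 both were closer to 0, at -0.17 for Ptch1 and -0.16 for Gli1. The receptor Smo differed by -0.09 ± 0.07 and the co-receptor Gas1 by 0.11 ± 0.11. Shh itself lay between 0.728 and 1.14 TPM in WT and between 0.696 and 0.998 TPM in mutants and was below the filter.

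Distal and proximal markers separated mutant replicate 3 from the other 5 libraries. Hoxa13, distal, was at 10.6, 15.7 and 12.7 TPM in WT and 11.6, 11.9 and 2.75 TPM in mutants. Meis1, proximal, was at 12.2, 11.6 and 11.3 TPM in WT and 11.3, 11.3 and 21.6 TPM in mutants. Rarb, a proximal retinoic acid receptor, was at 1.60, 1.31 and 1.65 TPM in WT and 1.79, 1.75 and 6.52 TPM in mutants. Shox2, needed for the proximal limb skeleton, was at 27.1, 34.6 and 36.3 TPM in WT and 29.0, 30.5 and 14.8 TPM in mutants. Without that library the differences were -0.12 for Hoxa13, -0.05 for Meis1, 0.14 for Rarb and -0.12 for Shox2, against -0.71, 0.25, 0.62 and -0.44 with it. The list's 19 genes, 8 higher and 11 lower, had a median of -0.04.

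FGF and apical ridge genes had a median of -0.14 over 15 tested and of -0.01 without mutant replicate 3. Fgfr1, the FGF receptor of the mesenchyme, was at 11.1, 14.7 and 11.3 TPM in WT and 10.7, 8.31 and 7.58 TPM in mutants (-0.44 ± 0.14), and Dusp6, an FGF response gene, at 21.8, 20.8 and 16.7 against 19.97, 19.03 and 15.3 TPM (-0.12 ± 0.13). Etv4, another response gene, was at 9.17, 8.71 and 8.74 TPM in WT and 8.09, 7.20 and 6.72 TPM in mutants (-0.25 ± 0.10), below WT in every library. Of the Wnt list, 17 were tested with a median of -0.07. At an unadjusted p under 0.05, 4 were lower, beside 4.64% of all genes: Wnt5a (-0.42), Wnt11 (-0.50), Sfrp2 (-0.49) and Rspo3 (-0.32). Without mutant replicate 3 none of the 17 reached that p. Wnt5a was then at -0.22, Wnt11 at -0.29 and Rspo3 at -0.18, while Sfrp2 kept its difference, at -0.52. Wnt5a, which directs outgrowth, was at 10.2, 11.6 and 9.11 TPM in WT and 9.49, 7.87 and 5.36 TPM in mutants. BMP ligands and targets had a median of -0.02 over 17 genes.

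Chondrogenic genes were lower as a list, by a median of -0.43 over 12 tested, 11 of them lower, and by -0.20 without mutant replicate 3. None passed, and 3 of the 12 were lower at an unadjusted p under 0.05 (Sox6, Col9a1 and Col11a1), beside 4.64% of all genes. Without mutant replicate 3, 11 of the 12 were still lower, but only 1, Sox6, reached that p. As differences from the WT mean, the list's median was -0.29 in WT replicate 1. That was below mutants 1 and 2 (-0.16 and -0.24), while mutant replicate 3 was at -0.84. Sox9, the master regulator of cartilage, was at 2.30, 4.22 and 3.10 TPM in WT and 3.28, 2.24 and 1.00 TPM in mutants (-0.45 ± 0.24). Col2a1, the main cartilage collagen, was at 13.3, 18.8 and 16.3 TPM in WT and 15.04, 12.4 and 7.32 TPM in mutants (-0.48 ± 0.24), and Col9a1 at 6.44, 9 and 10.3 against 7.47, 5.68 and 3.84 TPM (-0.54 ± 0.22). The groups of all 3 overlapped, with WT replicate 1 the lowest WT library and mutant replicate 1 the highest mutant. Hapln1, a linker of cartilage matrix, was at 4.62, 2.51 and 2.81 TPM in WT and 3.75, 3.88 and 7.67 TPM in mutants (0.47 ± 0.25). Without mutant replicate 3 the differences were -0.15 for Sox9, -0.21 for Col2a1, -0.32 for Col9a1 and 0.19 for Hapln1. The list's median in the forelimb was also -0.43, with 1 call among the 12, Sox6, beside 1.28% of all genes lower there. Sox6 was among forelimb calls of earlier results, known when the list was chosen. Its call is therefore no independent support.

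Limb mesenchyme markers, those of the cells in which Cre is active, had a median of -0.08 over 26 genes, 6 higher and 20 lower. Prrx1, whose enhancer drives the Cre, was at 47.1, 55.5 and 56.6 TPM in WT and 47.3, 42.7 and 32.9 TPM in mutants (-0.38 ± 0.15). Tbx15, a mesenchymal T-box factor, was at 7.12, 11.7 and 9.21 TPM in WT and 7.18, 7.10 and 4.09 TPM in mutants (-0.55 ± 0.19), and Fn1 (fibronectin) at 23.6, 36.5 and 31.2 against 23.3, 22.9 and 20.9 TPM (-0.41 ± 0.17). WT replicate 1 lay near the mutants for all 3. Prrx1 differed by -0.23 and Tbx15 by -0.32 without mutant replicate 3.

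Markers of other cell types were read beside these lists. Surface ectoderm markers were tested for 17 of 20 genes, 15 higher and 2 lower (40.9% of all genes were higher), with a median of 0.25. At an unadjusted p under 0.05, 6 were higher (Krt8, Krt18, Krt19, Cldn6, Cldn7 and Grhl3), beside 1.37% of all genes. Krt8, a simple epithelial keratin, was at 10.01, 5.59 and 4.49 TPM in WT and 9.39, 9.56 and 26.2 TPM in mutants (0.97 ± 0.38). Krt14, the basal keratin, was at 13.9, 10.7 and 8.48 TPM in WT and 14.7, 17.7 and 4.18 TPM in mutants (-0.04 ± 0.46). Without mutant replicate 3 the difference of Krt8 was 0.51 and that of Krt14 turned to 0.54, all 17 tested markers were higher, and 3 reached an unadjusted p under 0.05. The summed level of the list was 104, 67.1 and 59.9 TPM in WT and 99.3, 104.8 and 114 TPM in mutants. WT replicate 1 thus lay with the mutants, and without it the median was 0.45. The part of this ectodermal level in the lower mesenchymal and chondrogenic values was not tested. In the forelimb the ectoderm list lay the other way, with 4 of 17 higher, 13 lower and a median of -0.13.

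Endothelial markers summed to 24.6, 35.5 and 32.7 TPM in WT and 27.0, 25.7 and 43.6 TPM in mutants (median difference 0.03 over 11 genes, and -0.15 with all 11 lower without mutant replicate 3). Erythroid markers summed to 2558, 2910 and 2915 TPM in WT and 3043, 3352 and 2349 TPM in mutants (-0.14 over 13, and 0.04 without mutant replicate 3), and Pecam1 and Hbb-y were present in every library. Myogenic precursor markers had a median of -0.23 over 7 genes, nerve and Schwann cell markers of 0.03 over 6 and myeloid markers of 0.05 over 5, and none of these lists held a call. Host genes of small nucleolar RNAs had a median of 0.20, 14 of 15 higher, but of 0.35 without WT replicate 1 and 0.06 without WT replicate 2. WT replicate 1 lay above mutants 1 and 2 in this list. Its member Snhg9 was at 7.03, 10.46 and 8.78 TPM in WT and 15.5, 9.44 and 17.9 TPM in mutants (0.62 ± 0.22). Glycolysis and hypoxia genes (0.07 over 20), interferon-stimulated genes (0.12 over 6), mitochondrially encoded genes (0.08 over 15) and snoRNAs (-0.07 over 25) held no call either.

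**Figure D4:**
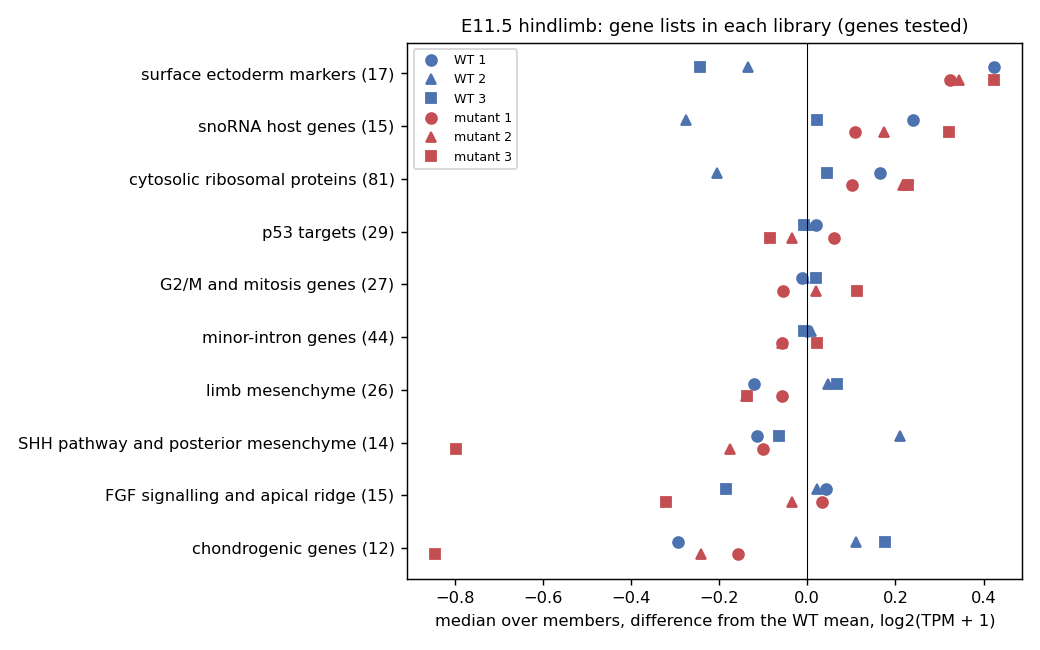
Median over the tested members of 10 gene lists in each hindlimb library, as the difference of log2(TPM + 1) from the mean of the 3 WT libraries. Mutant replicate 3 lies far to the left for SHH and chondrogenic genes, and WT replicate 1 lies with the mutants for surface ectoderm markers.

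One day earlier, at E10.5, the hindlimb had been sampled in the same genotypes, with reads trimmed at their ends, which was not done at E11.5. On a scale common to all 24 libraries, Rnu11 was at 716, 552 and 427 TPM in E10.5 WT and 164, 178 and 267 TPM in E10.5 mutants, with a difference of -1.47 ± 0.49. The E11.5 difference on that scale was -1.91 ± 0.49, and the change between the stages, -0.44 ± 0.70, did not pass. Rpl28 was at 55.3, 79.3 and 328 TPM in E10.5 WT and 65.1, 77.8 and 174 TPM in E10.5 mutants, so its groups overlapped there. Its difference between stages was -2.78 ± 0.82 (adjusted p = 1).

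Capns1 was at 19.9, 21.7 and 20.4 TPM in E10.5 WT and 13.0, 14.0 and 12.6 TPM in E10.5 mutants, again without overlap (-0.61 ± 0.20, adjusted p = 0.940). Tbcb was at 21.2, 26.6 and 29.3 TPM in E10.5 WT and 18.1, 14.3 and 20.8 TPM in E10.5 mutants (-0.51 ± 0.20). Sox6, which was lower at E11.5, differed by 0.21 at E10.5 and Hoxd13 by 0.35. The test of the difference between stages gave 1 gene of 12118 (0.00825%), AC154540.1. It was listed at 0 in all E11.5 hindlimb libraries, so the value restates the E10.5 groups and shows no change of an effect.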

How the data were processed

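Total RNA of E11.5 hindlimb buds was sequenced in 3 mutant and 3 WT libraries. The authors deposited 1 table of TPM values per library, over 38019 gene symbols, with HISAT2 and mm10 named per the submitters' processing notes. Which quantifier and annotation were used, and whether strand was, is not given in the sources used here. E10.5 reads were trimmed and E11.5 reads were not, per the labels' protocols.

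The deposited TPM values were scaled to 1 median over 3949 genes with at least 5 TPM in all 12 E11.5 libraries, and genes that reached 1 TPM in 3 or more libraries were tested on log2(TPM + 1) with limma 3.58.1 (trend, R 4.3.3) over both limbs. Comparisons between stages used all 24 libraries. The fit was checked on simulated data. Gene positions and types came from GENCODE M21, which matched 36287 symbols. TPM keep no depth, so no counting interval is given.

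Named genes were Rnu11, called genes, and the 10 largest rises and falls at an unadjusted p under 0.05 whose groups did not overlap and whose higher mean reached 5 TPM, without predicted and Y-linked genes and Xist. Up to 3 called or the 2 highest members of each list were added, with all members of the lists of minor spliceosome RNAs, limb identity and forelimb calls. Other genes were named after their values were seen: Gm24405, Gm28872, Rfx5, list members at an unadjusted p under 0.05 and members that show how libraries differ. Members and lists were chosen with earlier results of these data known. The planned scan of a genome for minor introns was replaced by introns read in transcripts, chosen after seeing the data. Alternatives covered scale, pseudocount, filter, gene set, libraries and the replicate block. Some results are not reported here.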

Additional observations from a re-analysis of the deposited data

Results flagged for a closer look

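Eda2r, a p53 target, differed between genotypes by 0.01 ± 0.17 in the hindlimb and by 2.03 ± 0.17 in the forelimb at E11.5, and the test of the difference between limbs passed (-2.02 ± 0.24, limma adjusted p = 0.0371). All 3 mutant forelimb libraries lay above every other E11.5 library, and the gene reached the filter through these 3 alone. The call is therefore no independent support, and it was lost without the filter (limma adjusted p = 0.152).

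AC154540.1 had a fitted difference between stages of 6.19. It was at 49.1, 219 and 34.5 TPM in E10.5 WT hindlimb, was listed at 0 in the 3 E10.5 mutants, and was listed at 0 in all 6 E11.5 hindlimb libraries. Both E11.5 groups are at 0, so the value restates the E10.5 groups.

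Etv4, an FGF response gene, was lower in every mutant than in every WT library of the hindlimb (-0.25 ± 0.10) and higher in every mutant than in every WT library of the forelimb (0.51 ± 0.10). The difference between the limbs was -0.76 ± 0.14 and did not pass (limma adjusted p = 0.196).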

How the results depend on the processing

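The count of 2 called genes in the hindlimb became 4 on the deposited scale and after rescaling over genes with at least 20 TPM, where Rnu11 and Gm28872 joined Rpl28 and Gm24405. It was 1, Rpl28, with a pseudocount of 0.1, at least 5 TPM in 3 libraries or nuclear protein-coding genes only, and 0 in the limma fit of all 24 libraries (70 higher and 237 lower at an unadjusted p under 0.05). In the fit of the 6 hindlimb libraries the count was 3: Rpl28, Gm25197 (-3.81 ± 0.20, limma adjusted p = 0.0004) and, higher in mutants, Rpl27-ps3. Leaving out 1 library gave 1 to 4 calls: 1 without WT replicate 2, and 4 without mutant replicate 1 (Gm25683 and Gm27535 added) or mutant replicate 3 (Capns1 and Gm10282 added). Without WT replicate 1 the 2 calls were Rpl28 and, higher in mutants, Bcam. Of the 4 calls without mutant replicate 1, 1 was higher. Rnu11 passed at -1.99 on the deposited scale and at -1.95 after rescaling over genes with at least 20 TPM. Leaving out 1 library moved it from -2.24 (without WT replicate 3) to -1.64 (without WT replicate 1).

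The count of 1 gene that differed between limbs was 3 on the deposited scale, 2 with a pseudocount of 0.1 and 2 in the fit of all 24 libraries. It was 0 without the filter, with at least 5 TPM and with the replicate block, and leaving out 1 library gave 0 to 1, where the 1, without mutant replicate 1, was Gm27535 and not Eda2r. The 8 limma settings with no call held 414 to 1044 genes higher and 391 to 1068 lower at an unadjusted p under 0.05. The count of 1 between stages was 3 without the filter and 0 with coding genes only (210 higher and 175 lower unadjusted). The limb comparison needs forelimb libraries and has no value in the fit of 6.

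Same-numbered WT and mutant hindlimb libraries deviated with correlations of -0.24, -0.04 and -0.04. Whether the numbers pair them is not given in the labels, and low correlations cannot show that they do not. Same-numbered mutant libraries of the 2 limbs had -0.01, 0.26 and 0.18, and WT ones -0.17, -0.14 and -0.05; whether they share embryos is not given in the labels. The block pairs WT with mutant within a limb, so no fit allowed for embryos shared between limbs. With the replicate block the hindlimb count was 2 and the limb count 0. Of the list medians, 462 values moved by less than the spread between replicates and 14 by more. Low levels are limited by an unknown depth, and 3 libraries a group limit all tests.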
